A study of Rattus norvegicus with 28 samples.

Results

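The rostral ventromedial medulla (RVM) of male rats injected as pups was compared with the RVM of uninjected rats on 9 of the 28 arrays of the series, namely every array titled as RVM. On each array, RNA from injected rats carried the dye Alexa 647 and RNA from uninjected rats carried Alexa 546, so each value is a ratio between both. Of these arrays, 5 held rats given carrageenan, a polysaccharide from seaweed used to provoke inflammation, at 0.25% in 0.9% saline and 1 µl/g. The other 4 held rats given saline, at a volume that the labels do not state. Both were single injections into the sole of the left hindpaw on postnatal day 3, with weaning on day 21 and rearing to day 59, and the uninjected controls were otherwise handled alike. Each cage held a single neonatal treatment, so cage and treatment cannot be told apart. The sources used here do not give the strain. The custom oligonucleotide array carried probes for 205 genes of neurotransmission, neuropeptides, neurotrophins and cytokines, read as 228 numbered features. The saline arrays also stand for an injection, so the pooled comparison sets any neonatal injection against none in this region, whichever agent was given. No array held rats given a needle without fluid.

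The RVM is the last brain stem relay of the descending pain pathway. It receives excitatory input from the periaqueductal grey (PAG) and sends axons to the dorsal horn of the spinal cord, where they can dampen or facilitate nociceptive transmission. Some of its neurons make serotonin, others GABA and enkephalin, and opioids given into the region relieve pain. Glutamate, GABA, neurotensin and substance P are among the transmitters that set the output of its neurons.

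The values are log2 ratios, given as injected over uninjected. The deposited table states neither its direction nor its log base. Injected over uninjected is the likely direction, with the injected sample in channel 1 throughout, and base 2 was assumed. The dyes were never swapped, so an effect of the dyes and an effect of injection cannot be told apart in any mean ratio below. Since the table holds ratios and no levels, the labelled region could not be checked against marker genes, and fewer cells of a type cannot be told apart from less RNA per cell. No label ties an array to an animal of its own, so the p-values measure spread between arrays, which may be technical.

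Of the 2052 RVM values, 1121 (54.6%) were exactly 0, which was read as a missing measurement. Carrageenan arrays 1 to 5 measured 108, 30, 110, 29 and 72 features, and saline arrays 1 to 4 measured 100, 146, 141 and 195. The carrageenan arrays thus carried less of the evidence, with arrays 2 and 4 the sparsest (mean difference -75.7 features, exact two-sided permutation p = 0.0476). That p exceeded 0.05 when any array other than saline array 1 was left out, the difference then running from -85.75 to -59.2. The 36 pairs of RVM arrays correlated at a median r of 0.17 across their shared features. Carrageenan array 2 lay below -0.3 in 2 pairs, at -0.39 with carrageenan array 4 over 19 features and at -0.36 with saline array 1 over 29 features. With zeros kept, the lowest of the 36 values was -0.13. A feature was tested when at least 3 arrays of each injected group had measured it, which left 56 features, 12 of them measured on all 9 arrays.

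In the pooled RVM arrays, the kainate receptor subunit Grik3 and the vasoactive intestinal peptide receptor Vipr2 had mean ratios below 0. The serotonin receptor Htr2c had a mean ratio above 0. These 3 of 56 features (5.36%) passed an adjusted p of 0.05 by limma, of which 1 was higher (1.79%) and 2 were lower (3.57%). Dye and injection cannot be told apart in these ratios. Of the other settings tried, Grik3 kept its call in 27 of 30, Vipr2 in 12 of 33 and Htr2c in 8 of 33. An unadjusted p below 0.05 was reached by 9 features (16.1%). The mean ratio was above 0 for 36 of the 56 (64.3%), with a median of 0.15. Without single arrays that median ran from 0.053, without saline array 2, to 0.21, without carrageenan array 4. Every measured array lay on 1 side of 0 for 6 features (10.7%), which were the 3 called ones, the histamine receptor Hrh3 and both tested features of Penk, the enkephalin precursor.

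**Figure D1:**
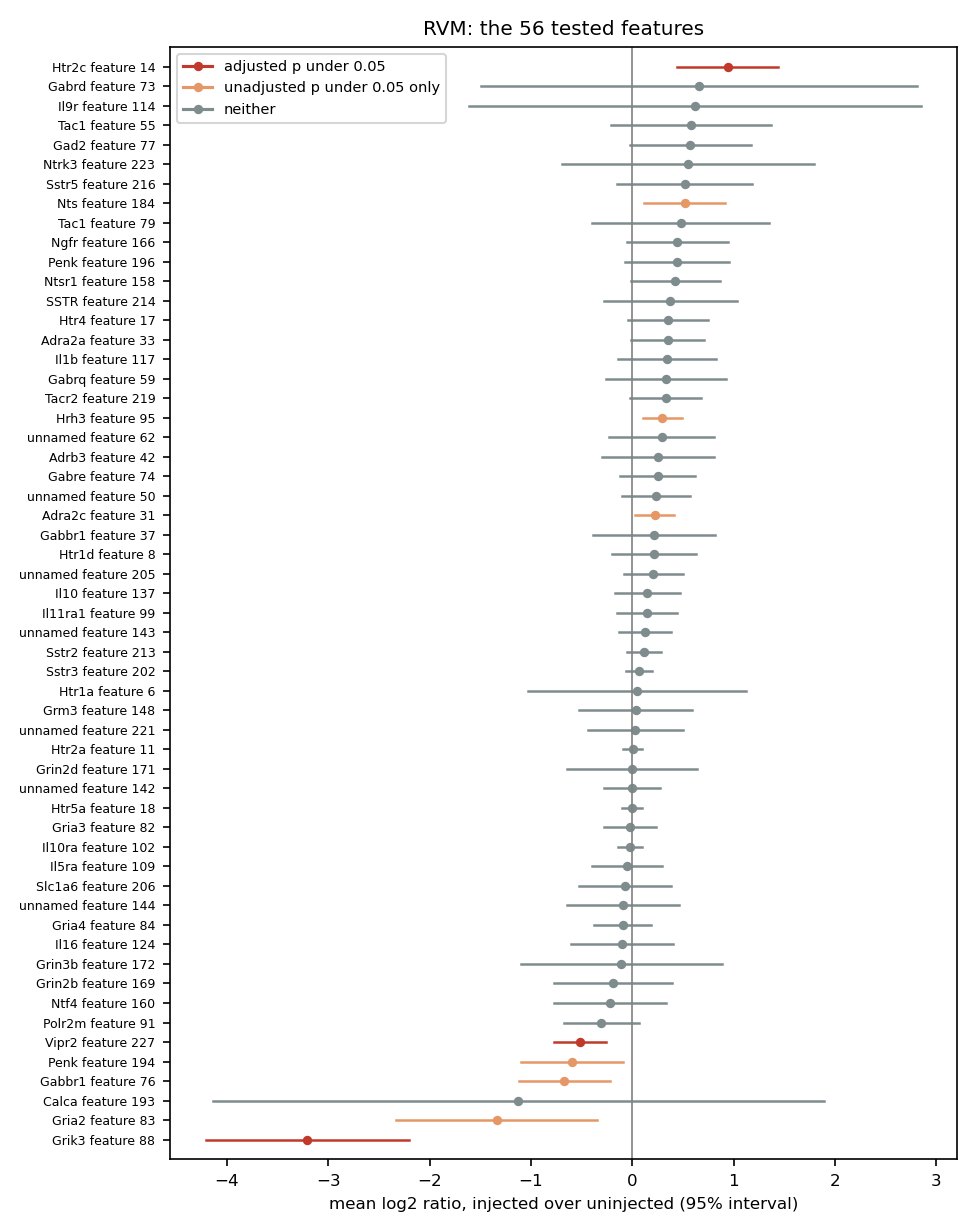
Mean log2 ratio (injected over uninjected, dot) and 95% interval from limma (line) of the 56 tested features in RVM, sorted from highest to lowest mean. Grik3 feature 88 lies apart at -3.21, while the widest intervals belong to features such as Calca, Gabrd and Il9r whose means rest on a single extreme array.

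Grik3 encodes a kainate-type glutamate receptor subunit, a ligand-gated cation channel found on both sides of the synapse. Its feature 88 read -5.37, -3.25 and -3.57 on carrageenan arrays 1, 3 and 5, and -1.50, -2.51, -3.75 and -2.51 on saline arrays 1 to 4. All 7 measured arrays were below 0, the carrageenan and saline values overlapped, and carrageenan arrays 2 and 4 had no value. The mean was -3.21 ± 1.22 (SD, n = 7), or 9.23-fold lower (95% interval -4.21 to -2.20 on the log2 scale, limma adjusted p = 0.00675). The call was kept without each RVM array in turn when the same 56 features were fitted. Without carrageenan array 1, 3 or 5, fewer than 3 carrageenan values remain, which is below the filter. With features filtered anew, Grik3 could thus be fitted in only 6 of the 9 cases, and it kept its call there. It was lost when exact zeros were kept as ratios of 0 (-2.49, limma adjusted p = 0.244 over 212 features and 0.0674 over the same 56). By the exact sign permutation test its p was 0.0156, the smallest that 7 arrays allow. After adjustment over the 56 features it did not pass (exact sign permutation test, adjusted p = 0.109). At that smallest p no feature could pass unless many others had p-values as small, so this test could not decide the call.

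Grik3 feature 89, another probe for that gene, was not tested because only 2 carrageenan arrays measured it. It read -0.86 and -0.093 on carrageenan arrays 3 and 5, and -3.91, -1.32 and -1.62 on saline arrays 2 to 4. It was thus also below 0 on each of its 5 arrays.

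Vipr2 is a G protein-coupled receptor for vasoactive intestinal peptide and for the related peptide PACAP. Feature 227 read -0.047, -0.71, -0.34 and -0.30 on carrageenan arrays 2 to 5, and -0.52, -1.06, -0.75 and -0.38 on saline arrays 1 to 4. All 8 values were below 0, with the 2 groups overlapping and carrageenan array 2 closest to 0. The mean was -0.51 ± 0.32 (SD, n = 8), or 1.43-fold lower (95% interval -0.77 to -0.26, limma adjusted p = 0.0436). The other Vipr2 probe, feature 226, was measured on 2 saline arrays only, at -1.24 and 0.56.

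Htr2c is a serotonin receptor coupled to phospholipase C. Feature 14 read 1.62, 1.04, 0.89 and 0.16 on carrageenan arrays 1, 2, 3 and 5, and 1.99, 0.96, 0.81 and 0.079 on saline arrays 1 to 4. All 8 values were above 0, and both groups covered nearly the same range. The mean was 0.94 ± 0.65 (SD, n = 8), or 1.92-fold higher (95% interval 0.44 to 1.44, limma adjusted p = 0.0436).

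The Vipr2 and Htr2c calls were narrow. Of 33 other settings tried for each, Vipr2 kept its call in 12 and Htr2c in 8, with adjusted p up to 0.604 and 0.309. A looser filter of 2 measured arrays per group, which raised the number of tested features to 98, ended both calls (limma adjusted p = 0.0613 each). Neither mean changed its side of 0 under these settings. All measured values of each gene lay on the same side, so leaving out or weighting arrays could not have moved it across.

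**Figure D2:**
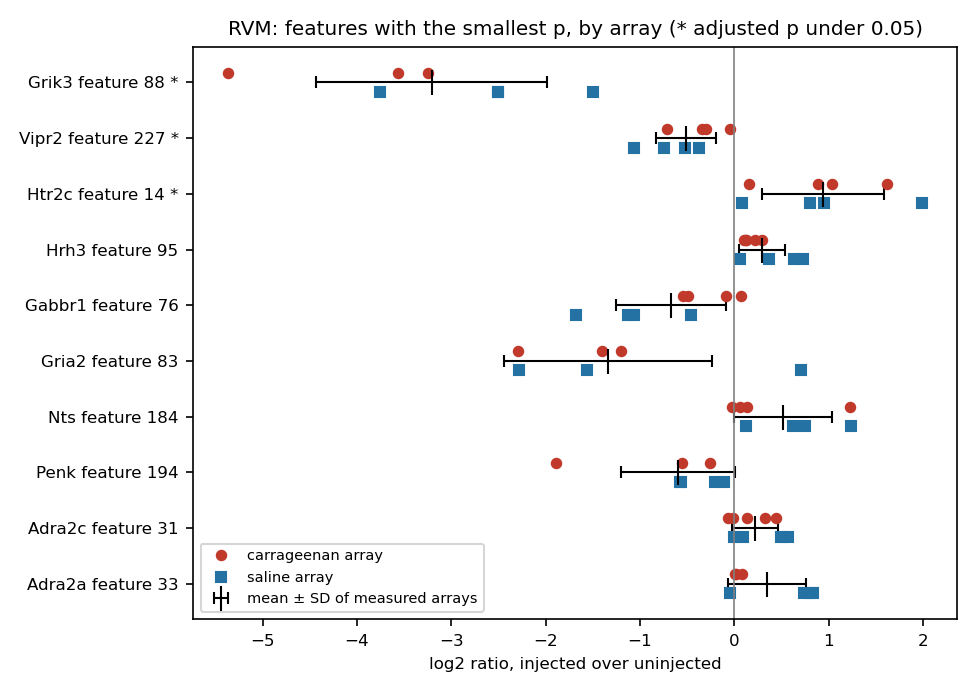
Log2 ratios (injected over uninjected) of the 10 features with the smallest p in RVM, with circles for carrageenan arrays, squares for saline arrays and a bar for the mean ± SD of the measured arrays. Grik3 and Vipr2 have every point below 0, and Htr2c and Hrh3 have every point above 0.

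Among ionotropic glutamate receptors, 7 of 23 features were tested, and all 7 means lay below 0 with a median of -0.11, against 0.15 over all tested features. Only Grik3 passed. That count depended on means close to 0: without single arrays, 5 to 7 of the 7 lay below 0, with medians from -0.44 to -0.023. Grin2d was 0.15 without saline array 4, and Grin3b was -0.54 without carrageenan array 1, which read 2.45. Gria2, the AMPA receptor subunit that limits calcium entry through the channel, had on feature 83 values of -2.30, -1.20 and -1.40 on carrageenan arrays 1, 3 and 5. Saline arrays 2 to 4 read 0.71, -1.56 and -2.28 for it. Saline array 2 was thus the only one of its 6 arrays above 0, and the mean of -1.34 ± 1.10 did not pass (limma adjusted p = 0.146). Without that array, on the same features, it was -1.75 and passed (limma adjusted p = 0.0122). That fit drops the only value on the other side of 0 and leaves fewer than 3 saline values, below the filter. The NMDA receptor subunit Grin2b was below 0 on 8 of 9 arrays, all but carrageenan array 1 at 1.76, and averaged -0.19 ± 0.82. The means of Gria3, Gria4, Grin3b and Grin2d feature 171 lay between -0.11 and -0.002, with intervals that included 0. Of the metabotropic glutamate receptors, Grm3 was the only one tested of 8 features and averaged 0.035 ± 0.67 (n = 7).

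GABA receptors gave 5 tested features of 22, of which 4 had means above 0 (median 0.25) and none passed. Without saline array 1 only 2 of the 5 lay above 0, since Gabbr1 feature 37 was then -0.027 and Gabrd -0.31. Gabbr1, which forms part of the GABA-B receptor, lay the other way on feature 76. It read 0.070, -0.49, -0.086 and -0.54 on carrageenan arrays 1, 2, 3 and 5, and -0.46, -1.06, -1.68 and -1.13 on saline arrays 1 to 4. On 3 of the 4 saline arrays it was lower than on every carrageenan array. The pooled mean of -0.67 ± 0.58 (n = 8) had a limma adjusted p of 0.0948. Of the settings tried, it passed only with both injected groups weighted equally (limma adjusted p = 0.0353). The extrasynaptic subunit Gabrd averaged 0.66 ± 2.63 (n = 7), a mean set by saline array 1 at 6.46. Gad2, which makes GABA from glutamate, averaged 0.57 ± 0.65 and was above 0 on 5 of 6 arrays (limma adjusted p = 0.262). The glutamate transporter Slc1a6 averaged -0.075 ± 0.54 (n = 7).

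Serotonin receptors gave 6 tested features of 16 on the array. Means were above 0 for 5 of them, with a median of 0.13, and Htr2c was the one that passed. Without single arrays, 4 or 5 of the 6 lay above 0, with medians from 0.024 to 0.30. Htr4, a receptor coupled to cyclic AMP, read -0.076, 0.29, 0.078 and -0.075 on carrageenan arrays 1, 2, 3 and 5, and 0.17, 1.22, 1.09 and 0.11 on saline arrays 1 to 4. Its mean of 0.35 ± 0.51 (n = 8) did not pass (limma adjusted p = 0.287). Htr1d, an inhibitory receptor, averaged 0.21 ± 0.53 (n = 8), or 0.047 without saline array 2 at 1.37. Htr1a, the inhibitory autoreceptor of serotonin neurons, averaged 0.042 ± 1.19 over values from -2.20 to 1.01 (n = 6). Htr2a and Htr5a were measured on 8 arrays each with almost no spread, at 0.0019 ± 0.013 and -0.0061 ± 0.011. Only those and the interleukin 10 receptor subunit Il10ra (-0.022 ± 0.036, n = 7) had an SD below 0.05, against a median SD of 0.57 over the 56 features.

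In the list of noradrenaline and dopamine genes, with 10 features, the 3 tested ones were adrenergic receptors, all had means above 0 and none passed. Adra2c, an inhibitory receptor, was measured on all 9 arrays and averaged 0.22 ± 0.24 (above 0 on 6 of 9, limma adjusted p = 0.173). Adra2a, its close relative, read 0.015, 0.086 and 0.004 on carrageenan arrays 1, 3 and 5, against 0.74, 0.84, 0.80 and -0.042 on saline arrays 1 to 4. Its mean of 0.35 ± 0.42 (n = 7) therefore came from 3 saline arrays (limma adjusted p = 0.262). Adrb3 averaged 0.25 ± 0.66 (n = 7), with saline array 2 at 1.72 and no other array above 0.20, and 0.0092 without it. Hrh3, the presynaptic histamine receptor, was the only feature measured on all 9 arrays that had every value on the same side of 0. Feature 95 read 0.12, 0.10, 0.22, 0.30 and 0.12 on the carrageenan arrays and 0.057, 0.73, 0.64 and 0.37 on the saline arrays. Its 9 values were all above 0 with a mean of 0.30 ± 0.24 (limma adjusted p = 0.0941). It passed with array weights (limma adjusted p = 0.047) and with both injected groups weighted equally (limma adjusted p = 0.0479), but under no other setting tried. Hrh3 feature 9, matched to the rat gene by symbol and not by gene ID, had 4 values. They were -0.87 and -0.61 on carrageenan arrays 1 and 3, and -0.43 and 0.22 on saline arrays 2 and 4. These lay mostly on the other side.

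**Figure D3:**
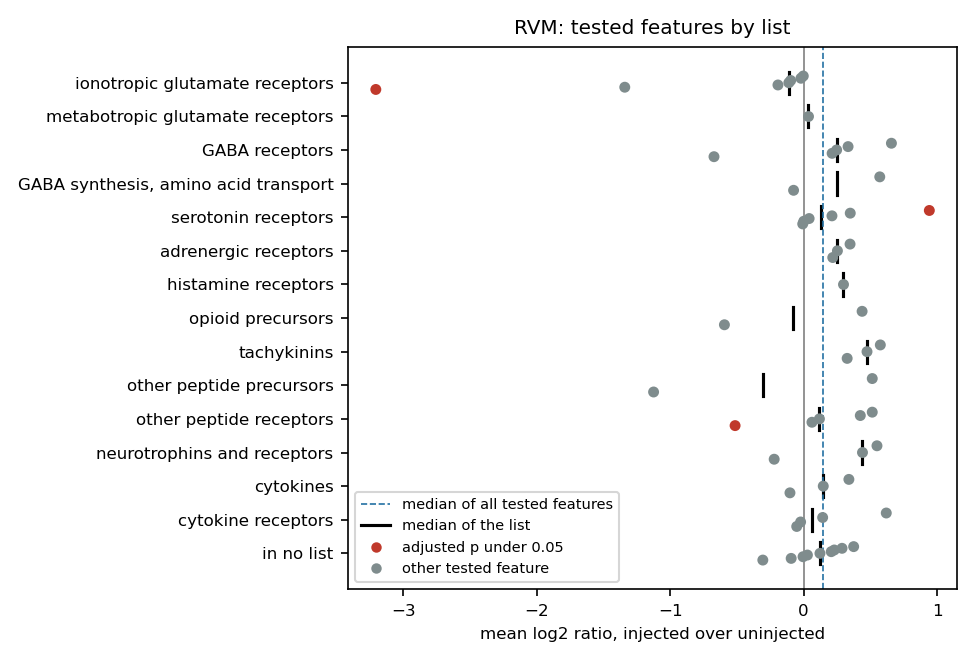
Mean log2 ratio (injected over uninjected) of each tested RVM feature by list; the black bar is the median of the list and the dashed line the median of all 56 features (0.15). With all arrays, the ionotropic glutamate receptors lie at or just below 0 in 5 and well below it in 2 of 7 features, and the 3 tachykinin and 3 adrenergic features above it.

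The opioid list had 12 features and 2 that could be tested, both for Penk, and they lay on opposite sides of 0 on each of the 6 arrays that measured both. Feature 194 read -0.55, -0.25 and -1.89 on carrageenan arrays 1, 3 and 4, and -0.11, -0.56, -0.58 and -0.21 on saline arrays 1 to 4. Feature 196 read 1.78, 0.27 and 0.055 on carrageenan arrays 1, 3 and 5, and 0.29, 0.53, 0.12 and 0.036 on those same saline arrays. Feature 194 was below 0 on 7 of 7 arrays (mean -0.59 ± 0.60, limma adjusted p = 0.173) and feature 196 above 0 on 7 of 7 (mean 0.44 ± 0.62, limma adjusted p = 0.294). Their means were -0.38 without carrageenan array 4 for feature 194 and 0.21 without carrageenan array 1 for feature 196. Neither passed, so these probes give no call on enkephalin precursor RNA. A further probe, feature 197, was measured on 2 saline arrays, at 0.91 and -0.36.

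Of the other genes with more than 1 tested feature, Gabbr1 feature 37 averaged 0.21 ± 0.65 (n = 6), against -0.67 for feature 76. The substance P precursor Tac1 had means above 0 on both features, 0.58 ± 1.04 on feature 55 and 0.48 ± 1.15 on feature 79 (n = 8 each). Tac1 feature 55 read -0.32, -0.010, 0.013 and 0.055 on carrageenan arrays 1 to 4, and 0.66, 2.97, 0.42 and 0.81 on saline arrays 1 to 4. The saline values were all higher than the carrageenan ones, and saline array 2 was far above the rest. Without that array the mean of feature 55 was 0.23, and without saline array 3 that of feature 79 was 0.13. Tacr2, a tachykinin receptor, averaged 0.33 ± 0.44 (n = 8), with its 3 highest values on saline arrays. The 3 tachykinin features had a median of 0.48 and none passed.

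**Figure D4:**
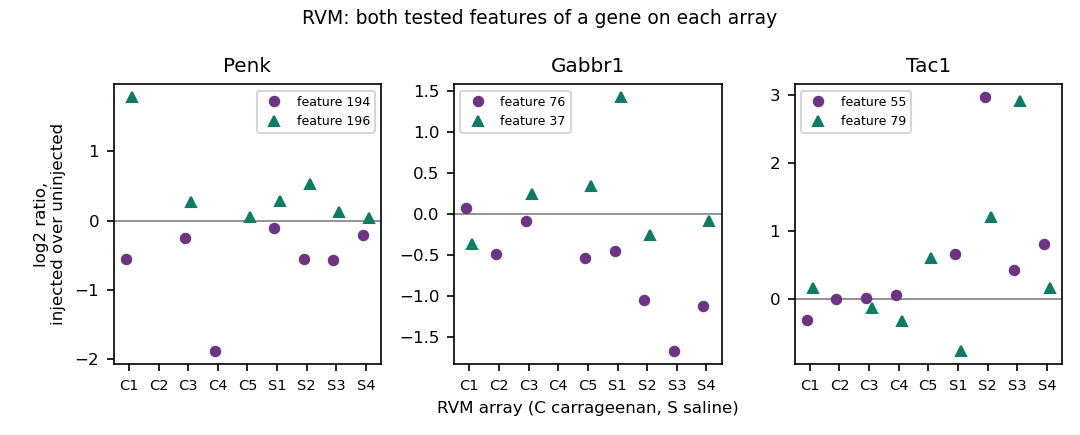
Log2 ratios (injected over uninjected) of both tested features of Penk, Gabbr1 and Tac1 on each RVM array, carrageenan arrays C1 to C5 left of saline arrays S1 to S4. Penk feature 194 lies below 0 and Penk feature 196 above 0 wherever each was measured.

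Neurotensin, a peptide that modulates RVM output, was represented by its precursor Nts and its receptor Ntsr1. Nts feature 184 read -0.026, 0.13, 1.22 and 0.061 on carrageenan arrays 1, 3, 4 and 5, and 0.12, 1.23, 0.62 and 0.75 on saline arrays 1 to 4. It was above 0 on 7 of 8 arrays with a mean of 0.52 ± 0.52 (limma adjusted p = 0.146). Ntsr1, matched to the rat gene by symbol and not by gene ID, averaged 0.43 ± 0.53. It was above 0 on 5 of 7 arrays (limma adjusted p = 0.262). The other peptide precursor tested, Calca, which encodes calcitonin gene-related peptide, averaged -1.12 ± 3.69 (n = 7). That mean came from carrageenan array 4 at -9.41, without which it was 0.26. Somatostatin receptors, which inhibit their target neurons, averaged 0.52 ± 0.73 for Sstr5 (n = 6), 0.12 ± 0.21 for Sstr2 feature 213 and 0.063 ± 0.14 for Sstr3 (n = 9 each). Of the 5 tested peptide receptor features 4 thus had means above 0, and Vipr2 was the only one that passed.

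Neurotrophin and cytokine features did not pass. Ngfr, the low-affinity neurotrophin receptor, was measured on all 9 arrays and was above 0 on 7, with a mean of 0.44 ± 0.70 and saline array 2 highest at 2.07 (limma adjusted p = 0.287). Ntrk3, the receptor of neurotrophin 3, averaged 0.55 ± 1.64 (n = 8), which was -0.022 without carrageenan array 5 at 4.56. Ntf4, a neurotrophin, averaged -0.22 ± 0.72 (n = 8). Among cytokines, the inflammatory interleukin Il1b averaged 0.34 ± 0.68 (n = 9) and the anti-inflammatory Il10 0.15 ± 0.33 (n = 6). Among cytokine receptors Il9r averaged 0.62 ± 2.73 (n = 7), with carrageenan array 5 at 6.75 and 5 of the other 6 arrays below 0. Il11ra1, an interleukin 11 receptor subunit, averaged 0.14 ± 0.37 (n = 8). The lists had 2 of 3 neurotrophin means, 2 of 3 cytokine means and 2 of 4 cytokine receptor means above 0.

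Saline array 2 gave the highest ratio of the 9 arrays for 22 of the 51 tested features that it measured, and carrageenan array 5 for 10 of 48. Carrageenan array 4 was above 0 for 7 of the 27 tested features that it measured, against 36 of 51 on saline array 2. Each array was then left out in turn, on the same 56 features. Without some array the mean of 46 features moved by over 1.5 times or changed side, and for 17 of them it changed side. The mean that moved farthest came without saline array 2 for 23 features, among them Gabrq (0.075), Gabre feature 74 (0.12), Il10 (0.031), Il11ra1 (0.059) and Sstr3 (0.023). The 10 whose means moved by 1.5 times or less were Grik3 feature 88, Vipr2, Htr2c, Hrh3, Gabbr1 feature 76, Gria2, Nts, Adra2c, Adra2a and Sstr2 feature 213. In these fits 1 to 3 features passed, and Grik3 was among them each time.

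Pooling assumes that both agents moved a feature alike, and the difference between them was tested in RVM as carrageenan minus saline. By limma 0 of 56 features passed (0%), 4 had an unadjusted p below 0.05 (7.14%), and the smallest adjusted p was 0.465. With so few arrays per group, a missed threshold does not show that both agents acted alike. Grik3, Vipr2 and Htr2c had both group means on the same side of 0. Grik3 averaged -4.06 after carrageenan and -2.57 after saline, Vipr2 -0.35 after carrageenan and -0.68 after saline, and Htr2c 0.93 after carrageenan and 0.96 after saline. Gabbr1 feature 76 averaged -0.26 ± 0.30 after carrageenan and -1.08 ± 0.50 after saline, and Il11ra1 -0.13 ± 0.21 in carrageenan arrays and 0.42 ± 0.29 in saline arrays (n = 4 per group, limma adjusted p = 0.465 for both). Sstr5, Tacr2 and Tac1 feature 55, the remaining features among the 5 with the smallest p, were lower after carrageenan by 1.09, 0.59 and 1.28, and none passed. Without saline array 4, Adra2a feature 33 passed (limma adjusted p = 0.0266).

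To see what was particular to RVM, its arrays were set against the 10 PAG arrays, which carried the same 2 injected groups and the same dye orientation. By limma 0 of 48 features passed (0%), the smallest adjusted p was 0.907, and 1 feature had an unadjusted p below 0.05 (2.08%). That was Polr2m, an RNA polymerase II subunit, at -0.31 ± 0.39 in RVM (n = 6) and 0.14 ± 0.35 in PAG (n = 9). The next features by p were the unnamed feature 142, Htr2c, the somatostatin receptor annotated as SSTR and Slc1a6, with differences of 0.25, 0.53, 0.42 and 0.40 and intervals that included 0. A p that misses the threshold does not show that the regions responded alike.

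Grik3 feature 88 averaged -3.21 ± 1.22 in RVM (n = 7) and -3.55 ± 3.01 in PAG (n = 10), a fitted difference of 0.18 (95% interval -2.04 to 2.39). Its PAG values ran from -9.67 to -0.11. In the lumbar dorsal horn of carrageenan-injected animals its 8 values ran from -7.97 to -0.88. It was below 0 on all 25 arrays of the series that measured it, in 3 regions and after either agent. Vipr2 was below 0 on 8 of 8 RVM arrays and on 7 of 9 PAG arrays, where carrageenan arrays 4 and 5 read 4.57 and 5.26 (difference -1.16, 95% interval -2.82 to 0.49). Htr2c was above 0 on 8 of 8 RVM arrays and on 7 of 9 PAG arrays, at 0.94 ± 0.65 in RVM and 0.39 ± 0.76 in PAG (difference 0.53, 95% interval -0.16 to 1.23). In the dorsal horn both were mixed, Vipr2 with 4 values above and 4 below 0 and Htr2c with 4 above and 3 below.

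**Figure D5:**
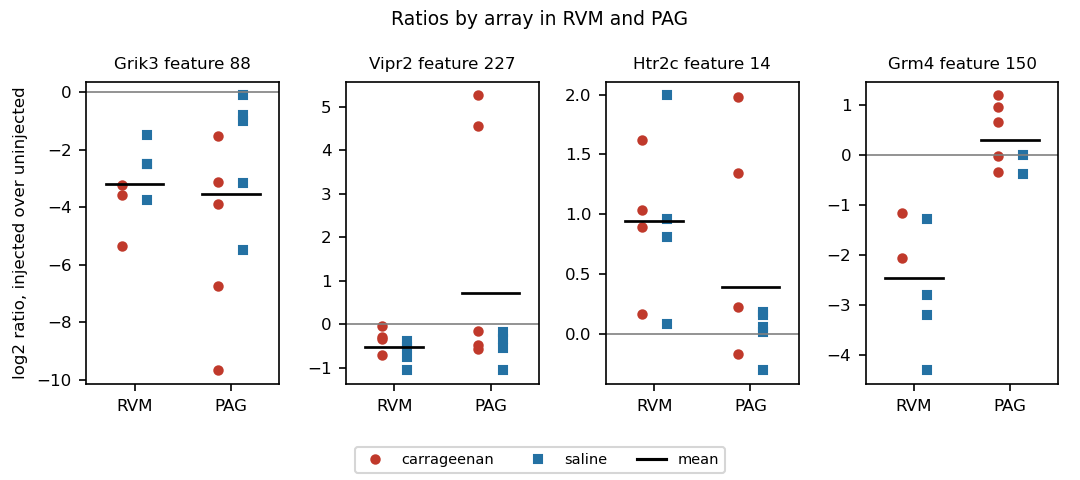
Log2 ratios (injected over uninjected) in RVM and in PAG by array, for the 3 features called in RVM and for Grm4 feature 150; circles are carrageenan arrays, squares saline arrays and black bars the mean of the region, and each panel has its own vertical scale. Grik3 lies below 0 in both regions, whereas Grm4 lies below 0 on all 6 RVM arrays and on both sides of 0 in PAG.

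Grm4, a metabotropic glutamate receptor of presynaptic terminals, was below the filter because 2 carrageenan arrays in RVM measured its feature 150, and it is given after its values were seen. Feature 150 read -2.06 and -1.16 on carrageenan arrays 3 and 5, and -3.20, -1.29, -4.31 and -2.80 on saline arrays 1 to 4. In PAG its 7 values ran from -0.38 to 1.18, so the regions did not overlap. The 2 dorsal horn arrays that measured it read -1.06 on the left and -4.72 on the right, below 0 as in RVM. The mean was -2.47 ± 1.21 in RVM (n = 6) and 0.29 ± 0.63 in PAG (n = 7). With at least 2 measured arrays per group it was the only one of 74 features that differed between RVM and PAG (difference -2.39, 95% interval -3.44 to -1.33, limma adjusted p = 0.0283). The other Grm4 probe, feature 149, lay on both sides of 0 in RVM, at 0.17 on carrageenan array 5 and 0.15, -2.28, -0.20 and -1.19 on saline arrays 1 to 4.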

How the data were processed

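Of the 28 arrays, the 9 of RVM and, for comparison, those of PAG and lumbar dorsal horn were used. The authors deposited 1 log2 ratio per feature and array. Per the labels' protocols, RNA was extracted with TRIzol and the dyes were bound with a 3DNA kit. Scanning, background correction and normalization are not given in the sources used here, and values were used as deposited. Values of exactly 0 were left out as missing. Precision is limited by how few arrays measured each feature.

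Of 228 features 202 had a name in the platform annotation. A rat RefSeq table (GRCr8) matched 191 by gene ID and 9 by symbol, 2 kept the annotation's name and 26 had none. The 9, among them Ntsr1, Hrh3 feature 9 and Il16, had annotated gene IDs that the rat table lacked. Their match rests on the name, and their probes may be designed for another species. Features of 1 gene were kept apart.

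Means were tested against 0 with the moderated two-sided test of limma 3.58.1 under R 4.3.3, on features measured on at least 3 arrays of each injected group. P-values were adjusted by Benjamini-Hochberg over all features of each of 3 comparisons, at 0.05. The comparison with PAG had the agent as a term. Scripts were tested on simulated data. Named were the features that passed or, with fewer than 10, the 10 with the smallest p. Tested opioid, tachykinin, serotonin and adrenergic features, 2 of each other list and further features of these genes were added, and the 5 with the smallest p in the other comparisons. Lists are described by counts and medians, not tested. Members, lists and tests were chosen with earlier results of these data known. No batch is labelled.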

Additional observations from a re-analysis of the deposited data

Results flagged for a closer look

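An array was set apart when its gap to the next value exceeded Dixon's 95% limit over the RVM arrays. This was checked for 35 sets of values and not for every tested feature, so the list below is not complete. Gabrd, with saline array 1 at 6.46 and the next value at 0.27, is not in it. Of the 35 sets 10 were flagged, where chance flags about 1 in 20. Saline array 2 stood above the others for Gria2 feature 83 (0.705, next -1.20), Tac1 feature 55 (2.974, next 0.81) and Adrb3 feature 42 (1.722, next 0.20). Carrageenan array 5 stood above the others for Ntsr1 feature 158 (1.499, next 0.54), Ntrk3 feature 223 (4.559, next 0.30) and Il9r feature 114 (6.751, next 0.19). Carrageenan array 4 stood below the others for Penk feature 194 (-1.89, next -0.58) and Calca feature 193 (-9.414, next -0.48). Carrageenan array 1 stood above the others for Penk feature 196 (1.784, next 0.53), and saline array 1 below them for Htr1a feature 6 (-2.204, next -0.095). None of these features passed in the pooled comparison, and none of Grik3, Vipr2 and Htr2c had such an array.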

How the results depend on the processing

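The 3 calls in RVM became 1, Grik3, with at least 2 measured arrays of each injected group, at least 3 of the 9 or at least 5 of the 9. The count was also 1 with the replicate number as a block (correlation 0.18) and with the sign of carrageenan array 2 turned. It was 5 with array weights, where Gria2 and Hrh3 were gained, and 4 with both injected groups weighted equally, where Gabbr1 feature 76 and Hrh3 were gained and Htr2c was lost. It was 0 with zeros kept (over all features or the same 56) and by the exact sign permutation test. The smallest possible p of that test is 0.0312 at 6 arrays and 0.00391 at 9. At such a p no feature could pass over 56 features unless others had p-values as small. Leaving out 1 array gave 0 to 3 calls. The labels state no pairing, and same-numbered arrays correlated at 0.086, 0.21, -0.058 and 0.24. The fits with a sign turned, without the 2 sparsest arrays or on the same features were chosen after seeing the data.

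Against PAG, 1 feature, Grm4, passed with at least 2 arrays per group and with zeros kept, and 0 under every other setting tried. Between carrageenan and saline, 0 passed under the other settings and leaving out an array gave 0 to 1. The difference in measured features ran from -90.87 to -59.2 when an array was left out.

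Of 1029 values of named features under other settings, 49 lost a call and 5 gained one. These 26 changed sign, and the cause was not tested. Htr2a was -0.008625 with median centring, -0.008091 with quantile normalization, -0.000714 without carrageenan arrays 2 and 4 and -0.003125 with the sign of array 2 turned. Htr1a was -0.1188 and Grm3 -0.03359 with quantile normalization, and Grm3 was -0.1998 with array weights. Calca was 0.258 without carrageenan arrays 2 and 4. With single arrays left out and features refiltered, Htr2a ran from -0.000714 to 0.005286, Calca from -1.499 to 0.258, Ntrk3 from -0.02229 to 0.6964, Slc1a6 from -0.2202 to 0.08133 and Grm3 from -0.1387 to 0.206. On the same features, Htr1a was -0.0438 without carrageenan array 3, -0.1498 without saline array 2 and -0.1522 without saline array 4. Likewise Grm3 was -0.01133 without carrageenan array 1, -0.04967 without saline array 1 and -0.1387 without saline array 2. Ntrk3 was -0.02229 and Il9r -0.4017 without carrageenan array 5, and Slc1a6 0.08133 and Gabbr1 feature 37 -0.0268 without saline array 1.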

Other observations

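Outside the 56 tested features, 41 had at least 5 of 9 RVM arrays measured but fewer than 3 of one injected group. Of these, 8 lay on 1 side of 0 on every measured array. Those are given as values, without a test, and were chosen after the data were seen. Besides Grm4 feature 150 and Grik3 feature 89, they were Bdnf, Cckbr, Gabre feature 60, Hrh1, Il17b and Sstr2 feature 201.

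Bdnf, the brain-derived neurotrophic factor, was below 0 on all 5 measured arrays. It read -2.89 and -0.25 on carrageenan arrays 1 and 3, and -1.17, -0.72 and -0.91 on saline arrays 2 to 4. Cckbr, the main cholecystokinin receptor of the brain, was above 0 on all 6. It read 1.12 and 0.089 on carrageenan arrays 1 and 3, and 0.088, 1.31, 1.16 and 0.13 on saline arrays 1 to 4. Hrh1, a histamine receptor that excites neurons, read 0.23 on carrageenan array 3 and 2.19, 1.49, 2.20 and 1.19 on saline arrays 1 to 4. Gabre feature 60, a GABA-A receptor subunit, read 10.46 on carrageenan array 5 and 0.011, 1.79, 2.39 and 1.77 on saline arrays 1 to 4, while the tested Gabre feature 74 averaged 0.25 ± 0.47 (n = 8). Sstr2 feature 201 read 0.53 on carrageenan array 1 and 0.28, 0.81, 0.64 and 0.073 on saline arrays 1 to 4. The cytokine Il17b read 0.16, 0.22 and 0.61 on carrageenan arrays 1, 3 and 5, and 3.52 and 0.90 on saline arrays 3 and 4.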
